A study of Homo sapiens with 6 samples.

Results

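The co-activators YAP1 and WWTR1 (the gene of TAZ), the transcription factor TEAD1, the Hippo regulators LATS2, AMOTL1 and AMOTL2 and the targets CTGF, CYR61, ANKRD1 and AXL were analysed in A549 cells upon knock-down of KMT9α. The 10 genes were chosen by name as effectors and targets of the Hippo pathway, out of 23180 gene symbols in the table. Earlier results of these data were known when they and the lists set beside them were chosen. For each gene the transcript with the most counts over the 6 samples was used. All 10 passed the filter on low counts, which left 13877 genes tested. A549 is a long-cultured line of human lung adenocarcinoma cells, labelled wild type and used at passage 11. RNA-Seq was performed on 3 samples labelled siRNA_Control (siControl) and 3 labelled siRNA_KMT9a (siKMT9α#1), taken 3 days after transfection with 65 nM siRNA. A single siRNA against KMT9α was sequenced, so that loss of KMT9α and any other effect of this siRNA cannot be told apart. The replicates are labelled biological, without saying whether they came from separate transfections, and p-values measure only the spread between these samples.

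In the Hippo pathway the kinases STK3 and STK4 (MST2 and MST1) activate the kinases LATS1 and LATS2, which phosphorylate YAP and TAZ and keep them out of the nucleus. YAP and TAZ that reach the nucleus bind DNA through TEAD factors and switch on genes such as CTGF, CYR61 and ANKRD1, and also LATS2 and AMOTL2, whose products restrain them in turn. The pathway senses cell density, cell shape and tension of the actin cytoskeleton. The study reports slower proliferation of A549 cells upon knock-down, and the part of cell density at harvest in the results below was not tested. The counts measure mRNA, and the phosphorylation and location of YAP and TAZ were not analysed here. In bulk RNA, fewer cells that express a gene and less of its RNA per cell cannot be told apart.

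The promoters of 3 targets are shown because TEAD binds the motif GGAATG and these genes changed in different directions and to different extents. The windows cover the 250 bases before the annotated start of the gene, 5′ to 3′ on the strand of the gene, and are taken from RefSeq on build GRCh38.p14, while the gene positions given further on are those of the deposited table, on hg19. Capitals mark GGAATG or its reverse complement CATTCC.
CTGF (chr6:131951373-131951622, minus strand): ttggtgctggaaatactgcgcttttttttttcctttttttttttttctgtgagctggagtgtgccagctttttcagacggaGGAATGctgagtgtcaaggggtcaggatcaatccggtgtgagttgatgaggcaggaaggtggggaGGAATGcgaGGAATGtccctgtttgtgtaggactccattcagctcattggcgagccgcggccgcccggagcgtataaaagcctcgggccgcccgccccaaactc
ANKRD1 (chr10:90921088-90921337, minus strand): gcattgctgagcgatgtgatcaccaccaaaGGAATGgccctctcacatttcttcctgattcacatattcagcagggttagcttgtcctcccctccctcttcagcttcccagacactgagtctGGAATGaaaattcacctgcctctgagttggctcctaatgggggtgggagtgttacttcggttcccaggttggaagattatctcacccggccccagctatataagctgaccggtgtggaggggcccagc
AXL (chr19:41218973-41219222, plus strand): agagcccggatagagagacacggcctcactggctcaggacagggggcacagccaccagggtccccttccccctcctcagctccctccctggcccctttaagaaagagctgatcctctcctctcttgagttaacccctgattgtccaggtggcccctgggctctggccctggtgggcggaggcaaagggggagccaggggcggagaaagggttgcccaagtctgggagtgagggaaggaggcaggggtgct
The CTGF window holds 3 copies of GGAATG, which start 169, 104 and 95 bases before the gene. The ANKRD1 window holds 2 copies, which start 220 and 128 bases before the gene. The AXL window shown holds 0 copies, and the second AXL window in the table, chr19:41226505-41226754, holds 1 copy of CATTCC that starts 212 bases before that start.

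Of the 10 genes, 8 had an entry in the promoter table, with 11 windows in all, and TEAD1 and CYR61 had none. The motif was also present in 1 copy in YAP1 and in 1 of the 2 windows of AMOTL2, and no match was found for WWTR1, LATS2 and AMOTL1. Of all 35116 promoter windows of the same length, 11.9% hold the motif on either strand. At least 2 copies are held by 0.928% of the windows and at least 3 by 0.0797%. The pattern TGANTCA is a loose form of the AP-1 motif that allows any base in the middle and reads the same on both strands. Among these 11 windows it was found only in ANKRD1, where it reads TGATTCA. This match starts 195 bases before the gene and does not overlap GGAATG. Of all windows, 6.57% hold the loose pattern. The CArG box, to which SRF binds, was found in 0 of the 11 windows and in 1.16% of all windows. These matches describe letters in a window and say nothing of binding in A549 cells.

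The samples held 15551778 to 18568639.5 counts with siControl and 13740097 to 19832395.5 with siKMT9α#1, and replicates of a group differed by more than sampling noise (chi-square per gene 1.36 to 5.25, against 106.6 to 140.5 between groups). The targeted gene N6AMT1, which encodes KMT9α, fell from 10.2, 10.8 and 11.5 to 2.87, 3.22 and 3.35 CPM (counts scaled to a common library size, here with edgeR's TMM factors). Of the epithelial markers, KRT8, KRT18, KRT19 and EPCAM were lower and CDH1 was higher after knock-down, and their summed level went from 3214 to 3576 CPM with siControl to 1725 to 1816 CPM with siKMT9α#1. Its part in the results below was not tested. The surfactant genes SFTPC and SFTPB, which mark alveolar type II cells, had at most 1 count in any sample, and NKX2-1 at most 10. Markers of other cell types were low, except for CD68, and their sums were lower after knock-down. The 4 fibroblast genes summed to 4.29 to 4.94 CPM with siControl and 3.03 to 3.61 CPM with siKMT9α#1, and COL1A1, the only one of them tested, fell (log2 fold change -0.61, edgeR adjusted p = 0.00113). The 2 endothelial genes summed to 0.442 to 0.679 CPM with siControl and 0.0731 to 0.105 CPM with siKMT9α#1. PTPRC had at most 2 counts and CD3E 0 in any sample, while CD68 fell from 77.7 to 84.5 CPM to 27.1 to 28.6 CPM. The part of these markers in the results below was not tested either.

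At an adjusted p under 0.05 in edgeR's quasi-likelihood test, 7 of the 10 genes were higher and 2 were lower upon knock-down, with AMOTL1 as the exception. Of all genes tested, 75.6% passed, 37.1% higher and 38.5% lower, so that passing is common in these data. At the threshold of the study, a P under 1e-08 together with a log2 change of more than 0.26 in either direction, 5 genes were higher (AXL, CYR61, WWTR1, AMOTL2 and YAP1) and 1 was lower (ANKRD1). That threshold was passed by 24.2% of all genes tested, 13.5% higher and 10.7% lower. The groups did not overlap in 9 of the 10 genes, against 77.0% of all genes. The median log2 fold change of the 10 genes was 0.56, and that of all genes tested was -0.01. These counts and this median depend on the choice of the 10 genes, which was made with earlier results known. Sign aside, the median change of all genes tested was 0.47 on the log2 scale, and CTGF, TEAD1, LATS2 and AMOTL1 changed by less. With 3 samples a side, an exact permutation test of any gene alone has a floor of p = 0.1. A change of more than 1 on the log2 scale was seen in AXL, CYR61 and ANKRD1, 3 of the 10 genes, and such a change with an adjusted p under 0.05 in 20.4% of all genes.

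**Figure D1:**
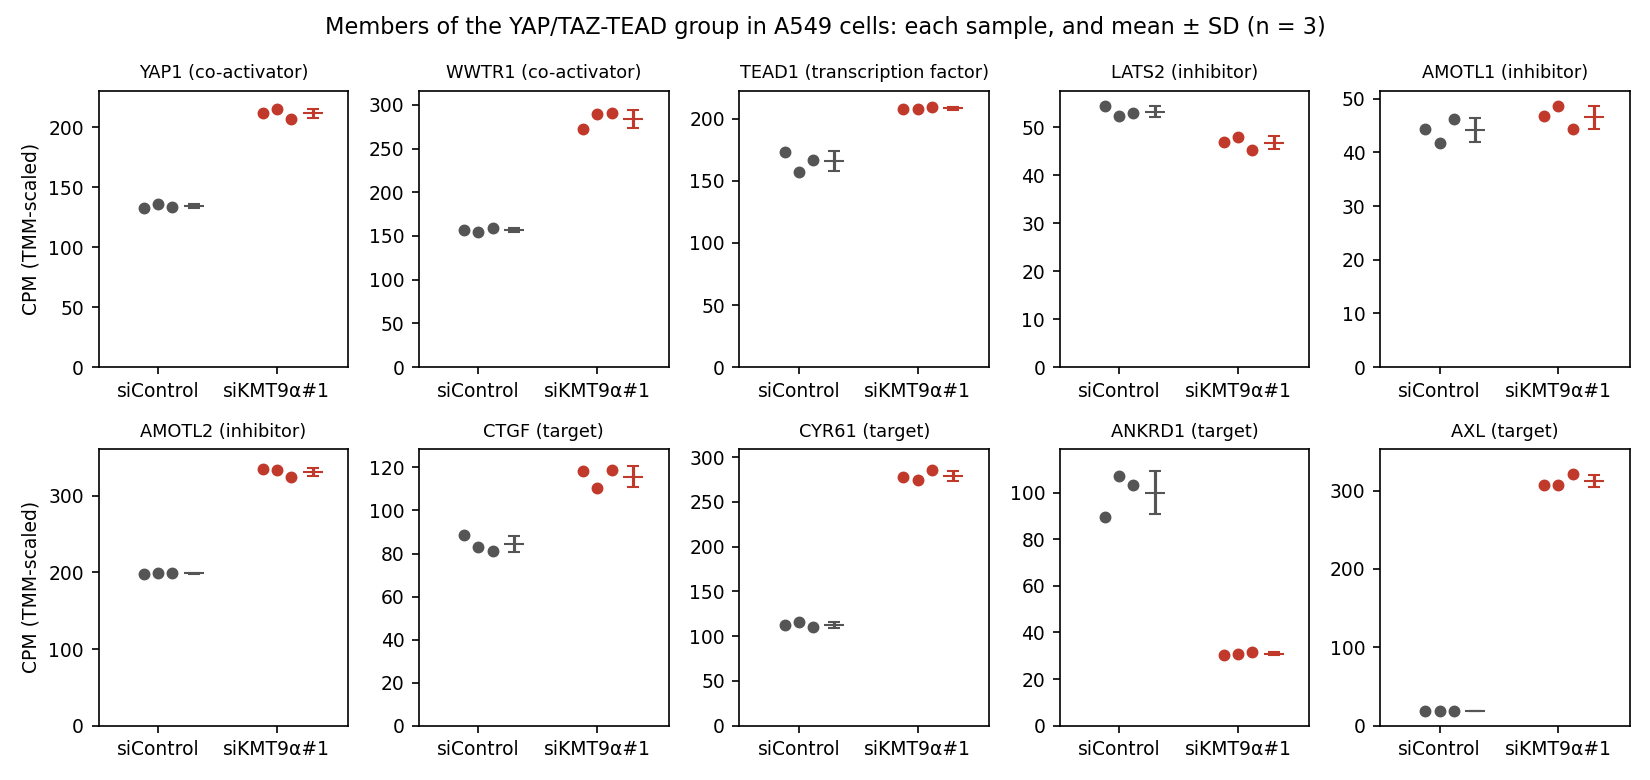
Level of each of the 10 genes in CPM (TMM-scaled, linear axes from 0) in the 3 siControl samples (grey) and the 3 siKMT9α#1 samples (red), with mean ± SD beside the points. AXL goes from 18.5 to 312 CPM in the mean. ANKRD1 is lower in every siKMT9α#1 sample than in every siControl sample, and the groups overlap only in AMOTL1.

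YAP1 and WWTR1 encode the co-activators themselves. YAP1, listed as NM_001130145 on chromosome 11 of hg19 from 101981192 to 102104154 (plus strand), had 133, 136 and 133 CPM in siControl replicates 1 to 3 and 212, 215 and 207 CPM in siKMT9α#1 replicates 1 to 3. All siKMT9α#1 samples lay above all siControl samples, and YAP1 rose from 134 ± 1.58 to 211 ± 4.0 CPM (SD, n = 3 each). Its change was 0.66 ± 0.05 on the log2 scale (SE, edgeR adjusted p = 1.17e-10). The 3 other listed transcripts of YAP1, which overlap it and can share its reads, had log2 fold changes of 0.66 each.

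WWTR1, listed as NM_015472 on chromosome 3 from 149235022 to 149375888 (minus strand), had 156, 155 and 159 CPM with siControl and 272, 289 and 291 CPM with siKMT9α#1. It rose from a mean of 157 ± 1.94 CPM to 284 ± 10.4 CPM (SD, n = 3), with a change of 0.86 ± 0.05 on the log2 scale (SE, edgeR adjusted p = 3.53e-12). TAZ mRNA thus rose by a factor of 1.81 and YAP1 mRNA by a factor of 1.58. Per length, WWTR1 was above YAP1 in every sample, with a ratio of RPKM (CPM per kilobase of transcript) of 1.24, 1.20 and 1.25 with siControl and 1.35, 1.41 and 1.48 with siKMT9α#1.

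TEAD1 encodes a DNA-binding partner of YAP and TAZ. Listed as NM_021961 on chromosome 11 from 12695969 to 12966284 (plus strand), it had 173, 157 and 167 CPM with siControl and 208, 208 and 209 CPM with siKMT9α#1. The siControl samples were more spread than the siKMT9α#1 samples, and the groups did not overlap. TEAD1 rose by a change of 0.33 ± 0.05 on the log2 scale (SE, edgeR adjusted p = 4.68e-06), a factor of 1.26. TEAD1 did not pass the threshold of the study in the quasi-likelihood test. It passed with edgeR's likelihood-ratio test (adjusted p = 1.24e-09) and with DESeq2 (adjusted p = 3.28e-09).

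Of the other TEAD genes and VGLL cofactors, a list of 7 genes, 5 were tested, 1 was higher, 3 were lower and TEAD4 did not pass. The 4 of 5 that passed are close to the 75.6% of all genes tested, 37.1% higher and 38.5% lower. TEAD2 fell from 17.9, 17.8 and 17.4 to 10.7, 11.98 and 10.3 CPM (log2 fold change -0.69, SE 0.09, edgeR adjusted p = 6.54e-07). TEAD3 was the least abundant TEAD and fell from 6.21 ± 0.33 to 4.72 ± 0.39 CPM (SD, n = 3 each, log2 fold change -0.39, edgeR adjusted p = 0.00979), a call that DESeq2 did not make (adjusted p = 0.0549). TEAD4 had 37.2, 37.2 and 39.7 CPM with siControl and 45.5, 43.4 and 37.2 CPM with siKMT9α#1 (log2 fold change 0.13, edgeR adjusted p = 0.0933), and the groups overlapped. Without siKMT9α#1 replicate 3, the lowest of its group, the log2 fold change of TEAD4 was 0.23 with an adjusted p of 0.00361 from edgeR.

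The VGLL cofactors moved in opposite directions. VGLL3, a TEAD-binding cofactor, rose from 11.1, 12.4 and 10.01 to 55.4, 57.7 and 57.9 CPM, a change of 2.36 ± 0.07 on the log2 scale (SE, edgeR adjusted p = 1.21e-15). VGLL4, which competes with YAP for TEAD, fell from 131, 136 and 137 to 71.9, 66.3 and 71.2 CPM, a change of -0.95 ± 0.05 on the log2 scale (SE, edgeR adjusted p = 2.17e-12). VGLL1 had 0 counts in every sample, which allows up to 0.151 to 0.218 CPM, here scaled by total counts without TMM, counting error only. VGLL2 had at most 3 counts. Per length, TEAD1 was at 17.7 ± 0.86 and TEAD4 at 21.5 ± 0.82 RPKM with siControl, and at 22.2 ± 0.11 and 23.8 ± 2.45 RPKM with siKMT9α#1 (SD, n = 3 each). The ratio of TEAD1 to TEAD4 within a sample was 0.791 to 0.879 with siControl and 0.861 to 1.06 with siKMT9α#1, and these ranges overlapped.

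LATS2 and the angiomotin-like genes AMOTL1 and AMOTL2 encode inhibitors of YAP and TAZ. LATS2, listed as NM_014572 on chromosome 13 from 21547176 to 21635722 (minus strand), had 54.5, 52.3 and 53.1 CPM with siControl and 46.9, 48.0 and 45.4 CPM with siKMT9α#1. Every siKMT9α#1 sample lay below every siControl sample. LATS2 fell by 0.19 on the log2 scale (SE 0.05, edgeR adjusted p = 0.00399), and scaled by library size without TMM it fell by 0.30.

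AMOTL2, whose product binds YAP and holds it at cell junctions and actin, is listed as NM_016201 on chromosome 3 from 134074190 to 134093406 (minus strand). It had 197, 199 and 199 CPM with siControl and 335, 334 and 325 CPM with siKMT9α#1. Its change was 0.74 ± 0.04 on the log2 scale (SE, edgeR adjusted p = 1.62e-11), a rise by a factor of 1.67. Its paralog AMOTL1, listed as NM_130847 on chromosome 11 from 94501508 to 94609918 (plus strand), had 44.3, 41.8 and 46.3 CPM with siControl and 46.7, 48.7 and 44.3 CPM with siKMT9α#1, and the groups overlapped. Its change was 0.07 ± 0.06 on the log2 scale (SE, edgeR adjusted p = 0.286), and with the library size alone it was -0.03. Within a sample, AMOTL2 was 7.77 to 8.62 times as abundant per length as AMOTL1 with siControl and 12.4 to 13.3 times with siKMT9α#1. The founding member of the family, AMOT, had at most 4 counts in any sample and was not tested.

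**Figure D2:**
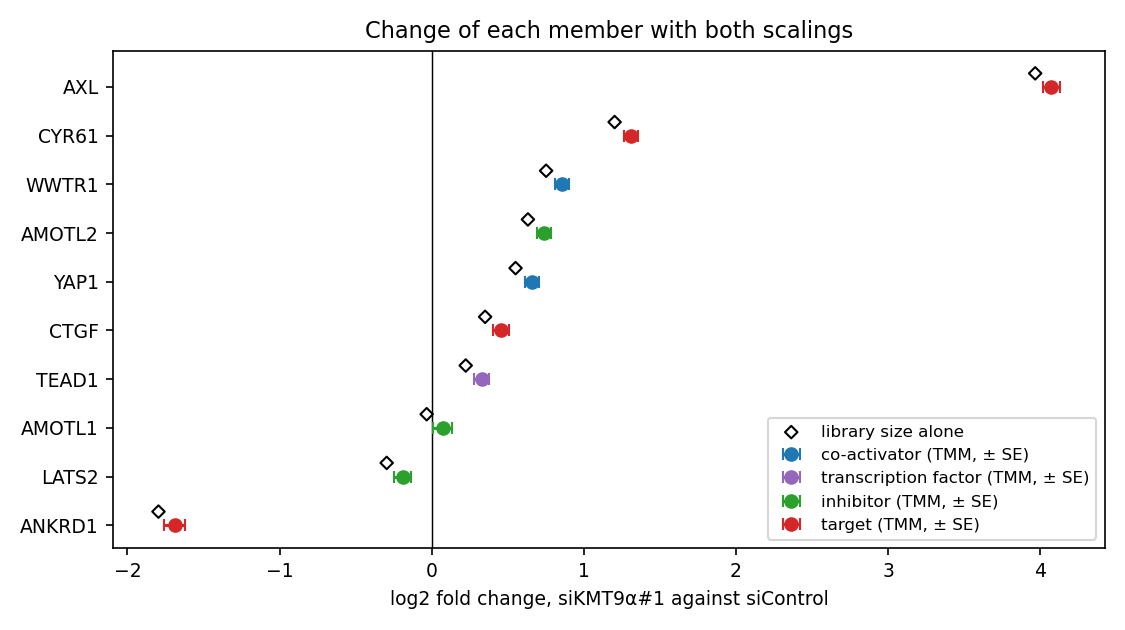
Log2 fold change of each gene, siKMT9α#1 against siControl, with its standard error (filled circles, TMM scaling, coloured by role) and with the library size alone (open diamonds). Values run from -1.69 for ANKRD1 to 4.07 for AXL, and AMOTL1 is the gene whose sign differs between the scalings.

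The upstream kinases and regulators formed a list of 18 genes, of which 16 were tested, 13 were higher, 2 were lower and MOB1A did not pass. Of all genes tested, 37.1% were higher and 38.5% lower. The median log2 fold change of the 16 genes was 0.52. At the threshold of the study, 7 were higher and 0 were lower, where 13.5% and 10.7% of all genes were. With the library size alone, 12 were higher and 3 were lower, because STK4 no longer passed (edgeR adjusted p = 0.152) and MOB1A, an adaptor of the LATS kinases, then did (log2 fold change -0.15).

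LATS1, the paralog of LATS2, moved in the other direction, from 17.0, 17.0 and 14.2 to 31.3, 34.2 and 34.4 CPM (log2 fold change 1.06, SE 0.08, edgeR adjusted p = 4.05e-10). Within a sample, which no scaling factor changes, the ratio of LATS1 to LATS2 per length was 0.364, 0.378 and 0.312 with siControl and 0.776, 0.831 and 0.884 with siKMT9α#1. LATS2 was the more abundant LATS mRNA per length in all 6 samples, and its lead was smaller after knock-down. Of the MST kinases, STK3 rose from 25.4 ± 0.54 to 43.9 ± 0.67 CPM (SD, n = 3 each, log2 fold change 0.79) and STK4 from 82.6 ± 4.83 to 94.5 ± 3.58 CPM (SD, n = 3 each, log2 fold change 0.19).

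The largest rises of the list were in 3 genes of the cell surface and cortex. FAT1, a giant protocadherin, rose from 118 ± 10.4 to 457 ± 24.5 CPM (SD, n = 3 each, log2 fold change 1.95, edgeR adjusted p = 1.04e-15). FRMD6, a FERM-domain protein related to NF2, had a log2 fold change of 1.84, and the protocadherin FAT4 of 1.56. The genes that fell were the kinase TAOK3, with a log2 fold change of -0.48, and the scaffold SAV1, with -0.22.

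CYR61 and CTGF (CCN1 and CCN2 in current nomenclature) encode secreted matrix-associated proteins and are common readouts of YAP/TAZ activity. CYR61, listed as NM_001554 on chromosome 1 from 86046444 to 86049648 (plus strand), had 113, 116 and 109.7 CPM with siControl and 277, 275 and 285 CPM with siKMT9α#1. The groups were far apart, and CYR61 rose from a mean of 113 ± 3.26 CPM to 279 ± 5.63 CPM (SD, n = 3), with a change of 1.31 ± 0.05 on the log2 scale (SE, edgeR adjusted p = 7.39e-15).

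CTGF, listed as NM_001901 on chromosome 6 from 132269317 to 132272518 (minus strand), had 88.6, 83.2 and 81.4 CPM with siControl and 118, 110.3 and 119 CPM with siKMT9α#1. It rose from a mean of 84.4 ± 3.77 CPM to 116 ± 4.71 CPM (SD, n = 3), with a change of 0.46 ± 0.05 on the log2 scale (SE, edgeR adjusted p = 1.51e-07). This was a factor of 1.37, against 2.48 for CYR61. CTGF did not pass the threshold of the study in the quasi-likelihood test. It passed with edgeR's likelihood-ratio test (adjusted p = 1.94e-15) and with DESeq2 (adjusted p = 8.32e-13). Per length, CYR61 was 1.30, 1.43 and 1.38 times CTGF with siControl and 2.40, 2.54 and 2.46 times CTGF with siKMT9α#1, and these ranges did not overlap.

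ANKRD1, which encodes a cardiac ankyrin repeat protein and has the 2 copies of GGAATG shown above, went the other way. Listed as NM_014391 on chromosome 10 from 92671857 to 92681032 (minus strand), it had 89.6, 107 and 103 CPM with siControl and 30.5, 30.6 and 31.6 CPM with siKMT9α#1. The siControl samples had the largest relative spread of the 10 genes, a coefficient of variation of 9.14%, and still lay above all siKMT9α#1 samples. ANKRD1 fell from a mean of 99.96 ± 9.14 CPM to 30.9 ± 0.65 CPM (SD, n = 3), with a change of -1.69 ± 0.07 on the log2 scale (SE, edgeR adjusted p = 2.78e-14), which is 3.23-fold lower. Among all genes tested it ranked 471 from the lowest log2 fold change.

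Within a sample, the ratio of ANKRD1 to CYR61 per length was 0.930, 1.07 and 1.10 with siControl and 0.128, 0.130 and 0.129 with siKMT9α#1. The mRNAs were thus about equally abundant per length in siControl cells, and CYR61 was far ahead in all 3 siKMT9α#1 samples. The mean ratio was 8.01-fold lower after knock-down.

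AXL encodes a receptor tyrosine kinase of the TAM family whose ligand is GAS6. Listed as NM_021913 on chromosome 19 from 41725108 to 41767671 (plus strand), it had 18.7, 18.7 and 18.3 CPM with siControl and 307, 308 and 321 CPM with siKMT9α#1. These rest on 302.5 to 352 counts in the siControl samples and 4063 to 6137.5 in the siKMT9α#1 samples. AXL rose from a mean of 18.5 ± 0.24 CPM to 312 ± 7.95 CPM (SD, n = 3), with a change of 4.07 ± 0.06 on the log2 scale (SE, edgeR adjusted p = 3.16e-20), which is 16.8-fold. It had the smallest p-value of the 13877 genes tested and ranked 8 from the highest log2 fold change. The other listed AXL transcript, NM_001699, had a log2 fold change of 4.07 as well. Relative to CYR61, AXL went from 0.0800 ± 0.0016 to 0.543 ± 0.0043 of its level per length (SD, n = 3 each), 6.79-fold higher.

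**Figure D3:**
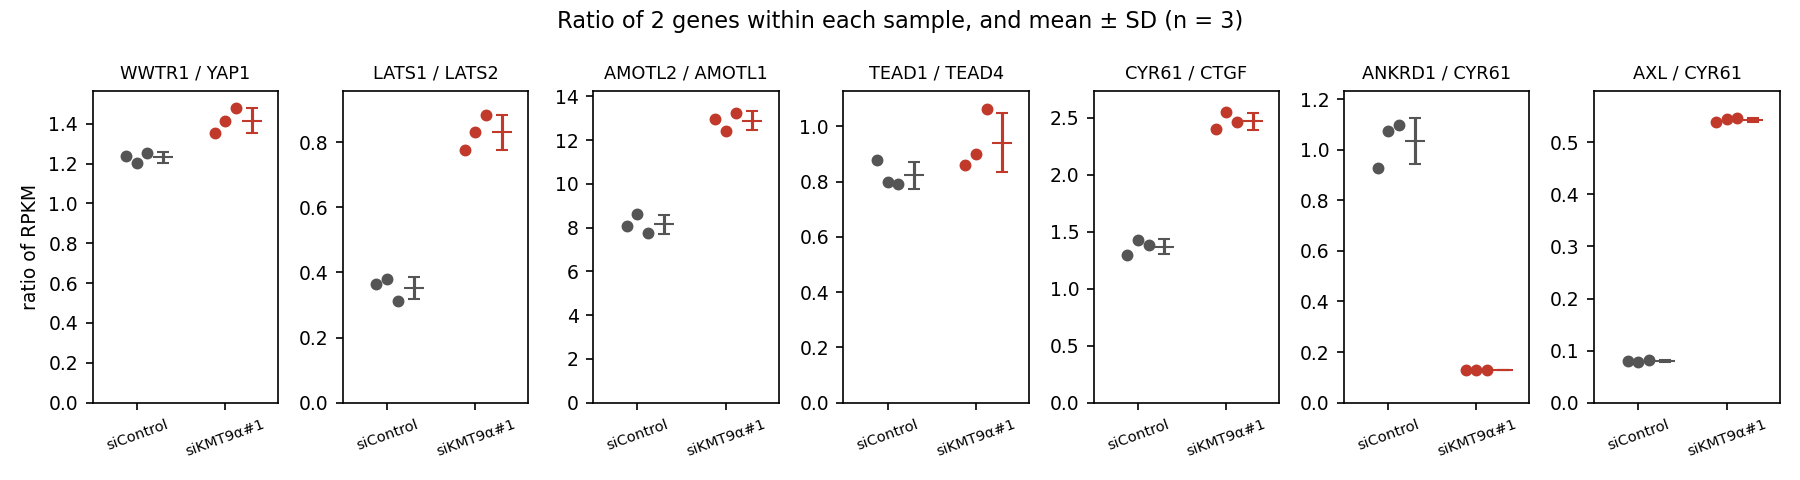
Ratio of the RPKM values of 2 genes within each sample (linear axes from 0) for siControl (grey) and siKMT9α#1 (red), with mean ± SD beside the points (n = 3). LATS1 gains on LATS2, AMOTL2 on AMOTL1 and AXL on CYR61, ANKRD1 falls from about level with CYR61 to 0.129 of it, and the groups overlap only for TEAD1 over TEAD4.

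The 7 ratios were chosen after the values of the genes had been seen, so that their p-values cannot serve as a test. For 6 of them siControl and siKMT9α#1 samples were apart, with an exact permutation p of 0.1, the smallest that 3 against 3 samples can give (0.117 with Benjamini-Hochberg adjustment over the 7). For TEAD1 over TEAD4 the p was 0.2.

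The order of the 10 genes by level per length changed. With siControl, ANKRD1 (51.1 ± 4.67 RPKM) and CYR61 (49.4 ± 1.43 RPKM) were the highest and overlapped, and AMOTL2, CTGF, WWTR1, YAP1, TEAD1, LATS2, AMOTL1 and AXL followed in this order, each apart from the next in all samples. AXL was the lowest, at 3.95 ± 0.05 RPKM (SD, n = 3). With siKMT9α#1, CYR61 was the highest at 122 ± 2.47 RPKM, followed by AMOTL2 (66.7 ± 1.13 RPKM) and AXL (66.4 ± 1.69 RPKM), which overlapped. WWTR1, CTGF, YAP1, TEAD1, ANKRD1 (15.8 ± 0.33 RPKM), LATS2 and AMOTL1 followed, each apart from the next in all samples. AXL moved from place 10 to place 3 and ANKRD1 from place 1 to place 8.

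A list of 16 further YAP/TAZ targets from a published signature was higher for the most part. All 16 were tested, 13 were higher, 2 were lower and RBMS3 did not pass, and the median log2 fold change was 0.82, against -0.01 for all genes tested. At the same adjusted p, 37.1% of all genes were higher and 38.5% lower. At the threshold of the study 11 were higher and 1 was lower, where 13.5% and 10.7% of all genes were. NT5E, the ecto-5′-nucleotidase CD73, rose from 75.7, 64.8 and 69.2 to 204, 194 and 219 CPM (log2 fold change 1.56, SE 0.06, edgeR adjusted p = 2.00e-14). CRIM1, a transmembrane protein that binds BMPs, rose from 286 ± 21.5 to 811 ± 80.8 CPM, and DOCK5, a guanine nucleotide exchange factor for Rac, from 47.5 ± 2.99 to 123 ± 7.62 CPM (SD, n = 3 each). The genes that fell, as ANKRD1 did, were the stress gene GADD45A, with a log2 fold change of -0.90, and PTPN14, a phosphatase that binds YAP, with -0.56.

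CYR61, CTGF and ANKRD1 are also known as targets of SRF and its actin-regulated co-activators, so a list of 10 SRF/MRTF targets of the cytoskeleton was set beside them. Of 9 tested, 2 were higher, 6 were lower and SRF itself did not pass, with a median log2 fold change of -0.30, against -0.01 for all genes tested. The 8 of 9 that passed stand beside 75.6% of all genes, of which 37.1% were higher and 38.5% lower. With the library size alone 7 were lower, SRF included (log2 fold change -0.15). At the threshold of the study, with TMM, 1 was higher and 2 were lower, where 13.5% and 10.7% of all genes were. MYL9, a myosin regulatory light chain, fell from 9.45 ± 0.49 to 1.96 ± 0.46 CPM (SD, n = 3 each, log2 fold change -2.31, SE 0.15, edgeR adjusted p = 6.80e-11). TAGLN, the actin-binding protein SM22, fell from 46.5, 47.1 and 46.9 to 10.7, 10.5 and 10.04 CPM (log2 fold change -2.17, SE 0.07, edgeR adjusted p = 1.83e-15). CNN2, a calponin, had a log2 fold change of -0.50.

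The actin genes differed in direction. ACTB rose from 917 ± 35.6 to 2393 ± 108 CPM (SD, n = 3 each, log2 fold change 1.38) and ACTA2 from 9.42 ± 1.02 to 15.8 ± 1.34 CPM (SD, n = 3 each, log2 fold change 0.74), while ACTG1 had a log2 fold change of -0.30. Actin genes are near-identical in their coding parts, and how the counting assigned shared reads is not stated, so these values are uncertain. The median of the SRF/MRTF list is the value of ACTG1.

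**Figure D4:**
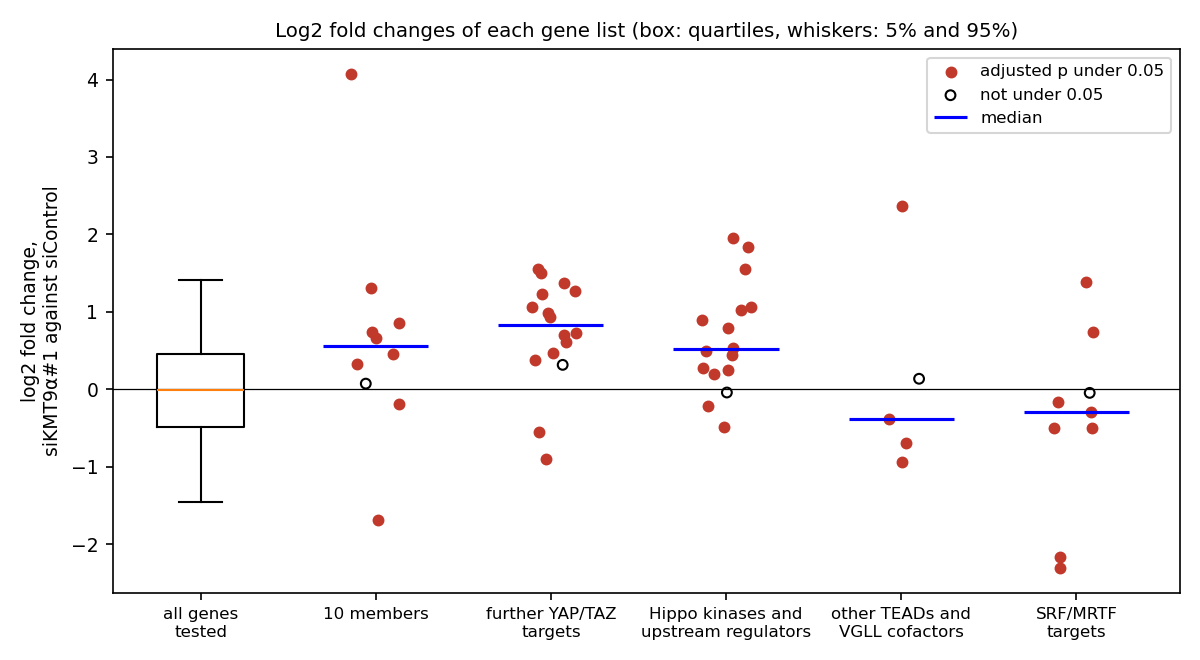
Log2 fold change, siKMT9α#1 against siControl, of every tested gene in the 10 genes and in 4 further lists (red, adjusted p under 0.05; open, not), with list medians as blue lines and all 13877 genes tested as a box (quartiles, whiskers at 5% and 95%). The medians are 0.56, 0.82, 0.52, -0.39 and -0.30 from left to right, and each list holds genes on both sides of 0.

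No other symbol of the deposited table overlaps the span of any of the 10 genes. In the GRCh37 annotation, antisense genes overlap YAP1, WWTR1 (WWTR1-AS1 among them), TEAD1, LATS2 (LATS2-AS1), AMOTL1, CTGF (LINC01013) and AXL. No antisense gene overlaps AMOTL2, CYR61 or ANKRD1. Whether the counting used the strand is not stated, and reads of a gene and of its antisense partner then cannot be told apart.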

How the data were processed

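RNA-Seq of A549 cells was analysed for 3 siControl and 3 siKMT9α#1 samples, grouped by their labels. Per the submitters' processing notes and methods, STAR was used for alignment, on build hg19, and the authors deposited estimated counts per RefSeq transcript from HOMER, in steps of 0.5 and without normalization. HOMER's counting options are not given in the sources used here. The deposited table also holds the authors' fold change (a ratio) and p-values from edgeR, which were not used. Of 38767 rows, 1182 without symbol and counts were left out. Of each symbol's transcripts, the most counted over all samples was kept.

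Counts were rounded and tested with edgeR 4.0.16 in R 4.3.3 (TMM, filterByExpr, quasi-likelihood F test, two-sided, Benjamini-Hochberg over 13877 genes). The biological coefficient of variation was 4.47%. The standard error was the log2 fold change over the square root of F. CPM used the TMM factors, and RPKM the deposited transcript length. The fit was tested on simulated data. Alternatives were DESeq2 1.42.0, the likelihood-ratio test, other scalings and filters, every transcript, a replicate block and each sample left out.

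The 10 genes, the lists and their tests were chosen with earlier results of these data known. Genes named beside the 10 were N6AMT1, the markers, LATS1, STK3, STK4, every gene of the TEAD and VGLL list, and in each other list up to 3 rises and 3 falls that passed. MOB1A, SRF, AMOT, RBMS3 and ACTG1 were named in addition, after their values were seen. Intervals and limits from counts cover counting error only.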

Additional observations from a re-analysis of the deposited data

How the results depend on the processing

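Under all 15 settings, 9 of the 10 genes had an adjusted p under 0.05 in their direction, and 6 to 8 passed the threshold of the study. With DESeq2, the likelihood-ratio test or no filter on low counts, 8 passed, CTGF and TEAD1 among them. With the library size alone, which moved the median log2 fold change of all genes from -0.01 to -0.12, AMOTL1 turned to -0.033 (edgeR adjusted p = 0.624). When 1 sample at a time was left out, log2 fold changes ran from 4.05 to 4.10 for AXL, from 1.29 to 1.34 for CYR61, from 0.44 to 0.51 for CTGF and from -1.75 to -1.63 for ANKRD1. The number of all genes past the threshold of the study went from 3357 to 6070 without a filter on low counts and to 5962 with edgeR's likelihood-ratio test (the cause was not tested), and ranged from 2326 to 4085 with each sample left out. TEAD and VGLL genes that were higher went from 1 to 2 without the filter, and ranged from 1 to 2 with each sample left out, with 2 without siKMT9α#1 replicate 3, where TEAD4 passed. Deviations of same-numbered samples were unrelated (correlations of -0.08, 0.02 and -0.08), and 0 of 6 samples correlated best with their own number, so the numbers were not taken as pairs. With the block, 9 genes passed as before, with log2 fold changes of 4.07 for AXL and -1.69 for ANKRD1, and 10229 of all genes passed against 10492 without it. Depth limits what can be said of VGLL1, VGLL2, AMOT and DCHS1, which were below the filter.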
